A study of Mus musculus with 4 samples.

Results

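The genes described are those of the pre-B cell receptor and of the signalling steps next to it. They include the surrogate light chain genes Vpreb1 and Igll1, the related gene Vpreb3, and the receptor chain genes Cd79a and Cd79b. The others are the adaptor gene Blnk and the kinase genes Btk, Syk and Lyn. All were taken from a list by symbol. Of the 9 genes, 8 had a transcript cluster of their own in the platform's gene table, out of 30702 genes named on the array, and Lyn was not analysed here. Each of the 8 genes had 1 transcript cluster, the set of probes by which the array reads a transcript.

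The pre-B cell receptor is the checkpoint complex of early B cell development in bone marrow. A newly made heavy chain pairs with a surrogate light chain, built from the VpreB and lambda5 proteins, and goes to the surface with the CD79A and CD79B chains. The cytoplasmic tails of CD79A and CD79B are phosphorylated by Src family kinases such as LYN, bind SYK, and pass the signal on through BLNK and BTK to calcium release and to cell division and light chain rearrangement. Mature B cells use the same receptor chains and signalling proteins with a conventional light chain, and SYK, BTK and LYN are also made by myeloid cells.

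The study set 4 groups of mouse tibial marrow side by side on 1 Affymetrix array each: astragalus (Astragalus membranaceus, a root of Chinese medicine), electro-acupuncture, cisplatin (a DNA-crosslinking platinum drug that lowers blood cell numbers) and a group labelled control, whose handling is not described. Marrow was collected after 2 weeks of treatment, and the design text states that 6 marrow samples were mixed, without saying outright that this was done per group. The sources used here do not give strain, sex, age or dose, nor whether the astragalus and electro-acupuncture mice had cisplatin too. With 1 array per group there is no spread between replicates, so no test was possible, and no p-value appears. The number of arrays limits the precision, and differences are read by size beside those of all genes. The label bone marrow was checked against marker genes: S100a8 and S100a9 of neutrophils were at the array's ceiling of 19.93 on all 4 arrays, and Alas2, the first enzyme of heme synthesis in red cell precursors, lay between 14.64 and 15.39. All levels are on the log2 scale, so a difference of 1 is 2-fold.

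The 4 arrays differed in the spread of their levels and in the genes of other cell types. Median levels over all 65956 clusters lay between 5.15 and 5.31, and the range between the 5th and the 95th percentile was 7.20 in astragalus, against 6.80 in electro-acupuncture, 6.83 in cisplatin and 6.81 in control. Bone matrix genes averaged 8.64 in astragalus, 8.05 in electro-acupuncture, 9.78 in cisplatin and 7.17 in control over 7 of 7 listed genes. Megakaryocyte and platelet genes averaged 12.94, 12.97 and 12.91 in the astragalus, electro-acupuncture and cisplatin arrays and 10.98 in control, over 6 of 8 listed genes. The part of these other cell types in the results below was not tested. In bulk marrow, fewer cells of a type and less RNA per cell cannot be told apart.

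Promoter windows are shown for the genes that set the pattern and for Btk, the gene that went the other way. Cd79a, Blnk and Vpreb3 had the lowest cisplatin levels relative to control among the genes with a window, while Btk was higher in cisplatin than in control. Each window runs from 250 bases before to 50 bases after the annotated start, read 5′ to 3′ on the gene's own strand from RefSeq sequences of build GRCm38.p6. Capitals mark matches, on either strand, to the E box CAGNTG bound by E2A type factors, to GAGGAA, a core read by PU.1, to CCCNNGGG, a core of the EBF1 site, and to the octamer ATTTGCAT read by OCT factors. The octamer was added after the sequences had been read.
Cd79a, chr7:24897247-24897546, plus strand: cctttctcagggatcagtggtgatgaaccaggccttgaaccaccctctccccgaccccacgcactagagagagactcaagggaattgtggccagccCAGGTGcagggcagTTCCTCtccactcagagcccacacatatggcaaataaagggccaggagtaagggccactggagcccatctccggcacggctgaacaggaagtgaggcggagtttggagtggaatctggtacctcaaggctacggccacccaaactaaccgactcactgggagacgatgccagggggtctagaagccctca
Blnk, chr19:40994172-40994471, minus strand: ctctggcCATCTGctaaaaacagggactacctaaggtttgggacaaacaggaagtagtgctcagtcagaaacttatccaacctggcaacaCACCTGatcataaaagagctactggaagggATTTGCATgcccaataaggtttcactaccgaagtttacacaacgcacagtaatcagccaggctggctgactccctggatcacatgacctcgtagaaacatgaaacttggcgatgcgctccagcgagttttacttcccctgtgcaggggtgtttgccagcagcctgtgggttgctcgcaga
Vpreb3, chr10:75948050-75948349, plus strand: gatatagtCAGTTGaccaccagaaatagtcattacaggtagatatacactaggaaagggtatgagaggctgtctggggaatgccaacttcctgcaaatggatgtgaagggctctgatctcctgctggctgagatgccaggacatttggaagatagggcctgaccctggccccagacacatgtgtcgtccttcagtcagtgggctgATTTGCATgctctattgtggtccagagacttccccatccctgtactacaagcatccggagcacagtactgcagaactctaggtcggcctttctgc
Btk, chrX:134583091-134583390, minus strand: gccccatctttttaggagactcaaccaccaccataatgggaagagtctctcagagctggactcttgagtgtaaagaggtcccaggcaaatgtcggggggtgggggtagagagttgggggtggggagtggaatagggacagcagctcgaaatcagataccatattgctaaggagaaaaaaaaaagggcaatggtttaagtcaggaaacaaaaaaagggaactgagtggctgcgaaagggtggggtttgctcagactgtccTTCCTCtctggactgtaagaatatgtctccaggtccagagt

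The RefSeq table held a window for 7 of the 9 genes, with a pair of them for Syk. An E box was found in 6 of these 7 genes, all but Btk, and in 51.4% of all 32851 promoter windows. GAGGAA was found in 5 of 7 genes, namely Vpreb1, Igll1, Cd79a, Btk and the second window of Syk, against 28.3% of all windows. These counts are per gene, with Syk counted if either of its windows matched, while the percentages are per window. The EBF1 core was present in Igll1 and in 13.7% of all windows. The octamer lay in Vpreb3, 45 bases before the annotated start, and in Blnk, 130 bases before it. It occurred in 1.74% of all windows. Because the octamer was added after these sequences had been read, no excess is read from that share. No match overlapped a match of another motif. These are matches of letters in a short window and say nothing of a factor's binding there.

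**Figure D1:**
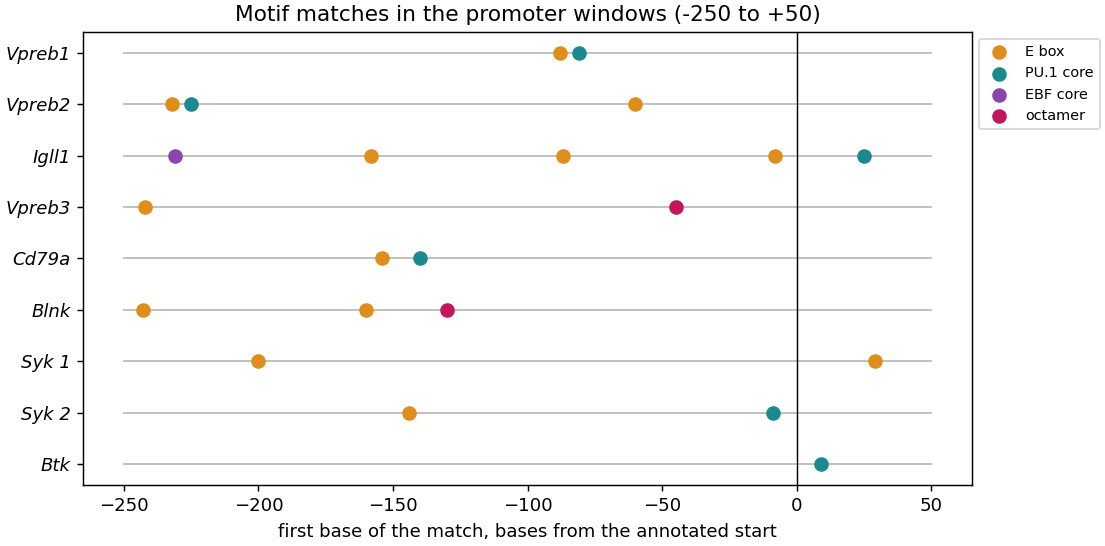
Position of each motif match in the promoter windows, as distance of its first base from the annotated start on the x axis, with 1 row per window and 1 colour per motif. Btk is the row without an E box, and the octamer appears in the Vpreb3 and Blnk rows.

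In the cisplatin array 4 of the 8 genes were at least 2-fold lower than in control: Cd79a, Blnk, Cd79b and Vpreb3, all between 2.14-fold and 2.57-fold. Among all 17208 genes above the floor, which is the median cluster level of 5.235, 0.965% were at least 2-fold lower in cisplatin. Syk, Igll1 and Vpreb1 were lower by under 1.5-fold, and Btk was 1.36-fold higher. The median over the 8 genes was a log2 difference of -0.82, against 0.01 over all genes above the floor. Control was the highest of the 4 arrays for 7 genes and the lowest for Btk, although Igll1 in astragalus lay above control after quantile normalization, median centring or loess. The 3 comparisons with control share that array, so 1 high or low control value would enter each of them.

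The surrogate light chain genes and Vpreb3 differed among themselves. Vpreb3 encodes a VpreB-like protein that associates with newly made immunoglobulin chains inside early B cells. It was at 7.20 in astragalus, 7.26 in electro-acupuncture, 6.69 in cisplatin and 7.79 in control. Control was the highest array and cisplatin the lowest, with astragalus and electro-acupuncture 0.06 apart between them. The cisplatin minus control difference of -1.10 was 2.14-fold, and 0.668% of all genes above the floor were as low or lower in that comparison.

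Vpreb1 encodes the variable-like part of the surrogate light chain. Its level was 6.61 in astragalus, 6.97 in electro-acupuncture, 6.70 in cisplatin and 7.04 in control. The whole range was 0.43, or 1.35-fold, and astragalus and cisplatin, the lower arrays, lay 0.09 apart. Which of them was lowest depended on the scaling, since astragalus minus cisplatin was -0.09 as deposited and 0.02 with each array centred on its median. In cisplatin minus control, 12.1% of all genes were as low as Vpreb1 or lower, so its difference was of a common size.

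Igll1 encodes lambda5, the constant-like part of the surrogate light chain. It stood at 5.26 in astragalus, 5.24 in electro-acupuncture, 4.87 in cisplatin and 5.29 in control. The first 2 and control lay within 0.05 of each other and cisplatin lay below them. Its mean of 5.165 was under the floor, the only one of the 8 genes there, which leaves the size of this difference uncertain.

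Mouse Vpreb1 has a near-identical copy, Vpreb2, which is not on the list. Vpreb2 was at 6.77 in astragalus, 6.76 in electro-acupuncture, 6.65 in cisplatin and 6.80 in control, a flatter course than that of Vpreb1. The windows of both genes, with that of the neighbouring Igll1, are shown because they tell how alike the copies are. Igll1 and Vpreb1 lie 4415 bases apart on chromosome 16 and are read from the same strand.
Vpreb1, chr16:16869206-16869505, minus strand: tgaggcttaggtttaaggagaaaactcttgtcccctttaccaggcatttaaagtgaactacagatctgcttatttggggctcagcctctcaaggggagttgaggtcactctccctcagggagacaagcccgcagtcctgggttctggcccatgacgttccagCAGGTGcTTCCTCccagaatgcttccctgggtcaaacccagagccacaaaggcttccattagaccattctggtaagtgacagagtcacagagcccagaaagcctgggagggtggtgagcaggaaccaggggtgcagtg
Vpreb2, chr16:17980315-17980614, plus strand: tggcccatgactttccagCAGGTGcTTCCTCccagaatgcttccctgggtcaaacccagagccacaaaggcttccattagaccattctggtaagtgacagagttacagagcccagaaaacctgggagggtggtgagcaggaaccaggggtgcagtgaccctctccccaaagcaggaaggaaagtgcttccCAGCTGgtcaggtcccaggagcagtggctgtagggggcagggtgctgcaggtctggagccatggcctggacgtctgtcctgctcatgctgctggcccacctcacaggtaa
Igll1, chr16:16863936-16864235, minus strand: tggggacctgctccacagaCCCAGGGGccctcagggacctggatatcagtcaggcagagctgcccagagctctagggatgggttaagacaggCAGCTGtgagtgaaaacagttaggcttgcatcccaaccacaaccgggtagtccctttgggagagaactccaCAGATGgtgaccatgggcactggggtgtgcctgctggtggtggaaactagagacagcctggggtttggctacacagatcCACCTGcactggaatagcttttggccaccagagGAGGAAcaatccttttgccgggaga

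Bases 145 to 300 of the Vpreb1 window aligned with bases 1 to 156 of the Vpreb2 window, with 153 of 156 positions identical (98.1%). The annotated starts of the copies therefore lie 144 bases apart on the shared sequence. The E box CAGGTG and the GAGGAA core on its other strand, TTCCTC, stand in the shared stretch, 88 and 81 bases before the annotated start of Vpreb1 and 232 and 225 bases before that of Vpreb2. Which probes belong to which copy is not given in the sources used here, so the signal may be shared between the clusters, and the values of Vpreb1 are uncertain to that extent. Of the 3 windows, that of Igll1 held the most matches, with 3 E boxes, 1 EBF1 core and 1 GAGGAA.

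The receptor chain genes had among the largest differences. Cd79a encodes the alpha signalling chain, also called Ig-alpha. Its levels were 8.20 in astragalus, 8.29 in electro-acupuncture, 7.84 in cisplatin and 9.20 in control. Control stood far above the other arrays, and those 3 lay within 0.45 of each other. The difference from control was -1.0 in astragalus, -0.91 in electro-acupuncture and -1.36 in cisplatin, and in the last 0.296% of all genes were as low or lower.

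Cd79b encodes the beta chain, Ig-beta. It was at 9.87 in astragalus, 9.33 in electro-acupuncture, 9.22 in cisplatin and 10.54 in control. Here astragalus stood apart from cisplatin by 0.65, or 1.57-fold, while electro-acupuncture stood 0.11 above cisplatin. In astragalus minus cisplatin 7.64% of all genes were as high or higher. That Cd79b difference was 0.76 with each array centred on its median. It was under 1.5-fold after quantile normalization, at 0.44, and with the loess trend removed, at 0.34. For Cd79a the astragalus minus electro-acupuncture difference was -0.09 as deposited and 0.07 with each array centred on its median, so no order of these arrays is read from it. The cisplatin minus control difference was -1.32, or 2.50-fold.

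Blnk encodes the adaptor that links SYK to phospholipase C and BTK. Its level was 8.17 in astragalus, 7.98 in electro-acupuncture, 7.93 in cisplatin and 9.28 in control. The first 3 lay within 0.24, and each was at least 2-fold below control: 2.16-fold in astragalus, 2.46-fold in electro-acupuncture and 2.55-fold in cisplatin. Of the 8 genes, Blnk alone reached 2-fold on all 3 arrays as deposited. With each array centred on its median its astragalus difference of -0.99 fell just short of that size. With the loess trend removed Cd79b reached 2-fold on all 3 arrays too, at -1.02 in astragalus, -1.28 in electro-acupuncture and -1.33 in cisplatin. As deposited, Cd79a was 1.88-fold lower in electro-acupuncture and Cd79b 1.59-fold lower in astragalus.

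The kinase genes followed other courses. Syk encodes the kinase that docks on the phosphorylated receptor tails. It was at 8.38 in astragalus, 7.76 in electro-acupuncture, 8.31 in cisplatin and 8.86 in control. Electro-acupuncture was the lowest array, 2.14-fold below control, while astragalus and cisplatin lay 0.07 apart. In electro-acupuncture minus cisplatin Syk differed by -0.55, and 5.79% of all genes were as low or lower.

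Btk encodes the kinase that BLNK brings to phospholipase C. Its level was 9.45 in astragalus, 9.14 in electro-acupuncture, 9.40 in cisplatin and 8.96 in control. Against control Btk ran opposite to the others, with control as the lowest array. Among the treated arrays its order as deposited was that of Syk, with astragalus highest and electro-acupuncture lowest. Its largest difference from control, 0.49 in astragalus, was 1.40-fold, and 17.9% of all genes were as high or higher there. That difference was 0.61 with each array centred on its median over all clusters, 0.35 after quantile normalization and 0.22 with the loess trend removed.

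**Figure D2:**
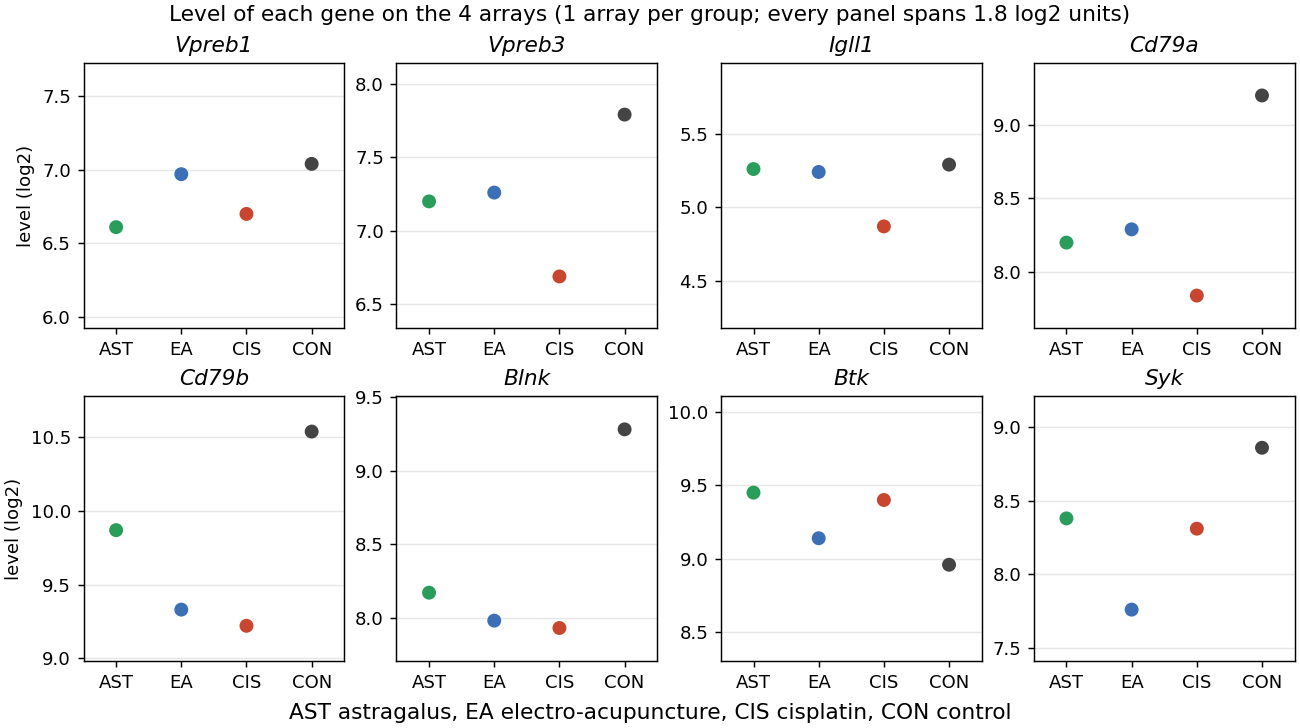
Level on the log2 scale (y axis) of each of the 8 measured genes on the 4 arrays (x axis: astragalus, electro-acupuncture, cisplatin, control), 1 point per array. Control is the highest point in 7 panels and the lowest in that of Btk, and cisplatin is the lowest in 5 panels, all as deposited.

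Cell markers were set beside the kinases, because myeloid cells also make them. Neutrophil and promyelocyte genes, 10 of 10 listed, averaged 15.31 in astragalus, 15.04 in electro-acupuncture, 14.77 in cisplatin and 14.45 in control. Their summed level was 153.1, 150.4, 147.7 and 144.5 in the same order. Control, the lowest array here, had the lowest Btk but the highest Syk. The genes of the neutrophil list did not move alike. In cisplatin minus control their median was 0.08, with Ctsg at 1.31, Mpo at 1.10, Elane at 0.86 and Prtn3 at 0.39. Of the 10 genes, 5 were above 0 and 2 below it, Ltf at -0.28 and Camp at -0.37. S100a8 and S100a9 at the ceiling can show no difference. The list's median was 0.81 in astragalus minus control and 0.16 in electro-acupuncture minus control. Monocyte and macrophage genes, 12 of 12 listed with 1 under the floor, averaged 8.01, 8.33 and 7.90 in the astragalus, electro-acupuncture and cisplatin arrays and 7.72 in control, with sums of 96.2, 99.9, 94.8 and 92.6. Of the 12, 7 were above 0 and 4 below it in cisplatin minus control, where the median over all genes was 0.01. Electro-acupuncture, the highest array for the monocyte and macrophage mean, had the lowest Syk and, of the treated arrays, the lowest Btk. The genes behind that mean did not move alike either. In electro-acupuncture minus control 10 of them were above 0, with Vcam1 at 1.56 and Mrc1 at 1.41. The 2 below 0 were Ly6c2 at -0.3 and Cx3cr1 at -0.26. The part of myeloid cells in the Btk and Syk levels was not tested. T cell genes, 6 of 7 listed with 1 under the floor, averaged between 5.79 and 5.90, near the floor. Cd3d stood well above it, at 8.16 in astragalus, 7.62 in electro-acupuncture, 7.31 in cisplatin and 7.67 in control. Plasmacytoid dendritic cells, which also use SYK, BTK and BLNK, were read from 5 of 5 listed genes, with means of 6.27 in astragalus, 6.52 in electro-acupuncture, 6.35 in cisplatin and 6.72 in control.

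Against control, the astragalus array had 4 of the 8 genes at least 1.5-fold lower, Blnk, Cd79a, Cd79b and Vpreb3, where 6.67% of all genes were. Vpreb3 was just past that size at 1.51-fold. At least 2-fold lower were 2 genes, against 2.68% of all genes, and that count was 0 with each array centred on its median and 3 with the loess trend removed. None was at least 1.5-fold higher, against 14.4% of all genes. The median was -0.53, with 0.05 over all genes. With each array centred on its median, which moves the median of all genes to 0.17, 2 genes were at least 1.5-fold lower and 1, Btk, was higher.

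Electro-acupuncture minus control also counted 4 genes at least 1.5-fold lower, Blnk, Cd79b, Syk and Cd79a, against 6.85% of all genes. Of these 3 were at least 2-fold lower, against 3.11% of all genes, and none was at least 1.5-fold higher, against 11.2%. The median was -0.72, with 0.04 over all genes. In cisplatin minus control the 4 genes at least 2-fold lower were also those at least 1.5-fold lower, where 4.28% of all genes were, and none was 1.5-fold higher, where 7.09% were.

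Set against cisplatin, the differences were smaller. In astragalus minus cisplatin 7 of 8 genes were above 0 and 1, Cd79b, was at least 1.5-fold higher, where 9.37% of all genes were. None was at least 1.5-fold lower, against 5% of all genes. The median was 0.30, with 0.06 over all genes, so the greater part of all genes was above 0 too. After quantile normalization or removal of the loess trend the median of the 8 genes was 0.11. Under these settings 5 of the 8 were above 0, and no gene reached 1.5-fold. Under both settings Btk and Syk turned below 0.

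In electro-acupuncture minus cisplatin 6 genes were above 0 and 2, Syk and Btk, below it. The median was 0.19, with 0.02 over all genes. No gene reached 1.5-fold in either direction, against 6.03% of all genes higher and 5.27% lower. Vpreb3 came nearest, at 0.57 or 1.48-fold, followed by Syk at -0.55 and Cd79a at 0.45. The comparisons with cisplatin share the cisplatin array with cisplatin minus control, so one low cisplatin value would enter all of them with opposite sign.

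Astragalus and electro-acupuncture were also compared with each other, a comparison that shares neither the control nor the cisplatin array. Syk was 1.54-fold higher in astragalus, the 1 gene past 1.5-fold, where 5.68% of all genes were, and none was lower by that size, where 4.18% were. Cd79b was 0.54 higher and Vpreb1 0.36 lower in astragalus. The other 5 genes differed by at most 0.31. After quantile normalization or loess no gene reached 1.5-fold.

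**Figure D3:**
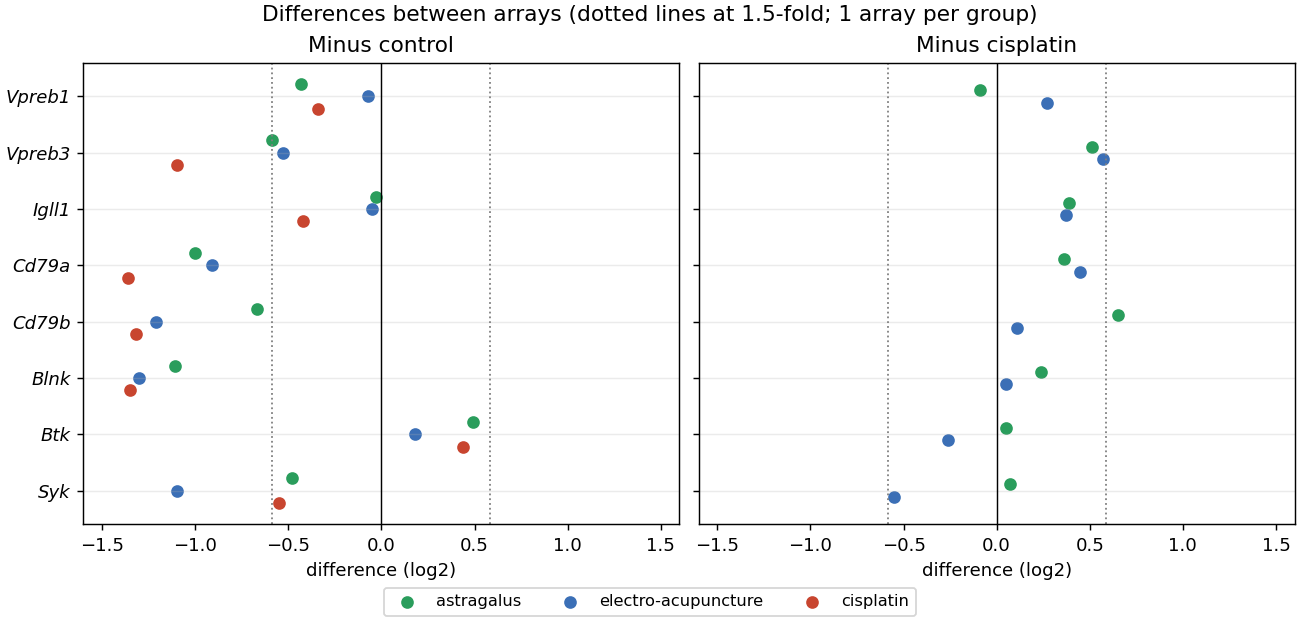
Difference on the log2 scale (x axis) for each gene (y axis), as astragalus, electro-acupuncture and cisplatin minus control on the left and as astragalus and electro-acupuncture minus cisplatin on the right. Dotted lines stand at 1.5-fold; Cd79a, Cd79b and Blnk lie left of the lower line for all 3 arrays on the left, and Cd79b alone passes the upper line on the right.

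**Figure D4:**
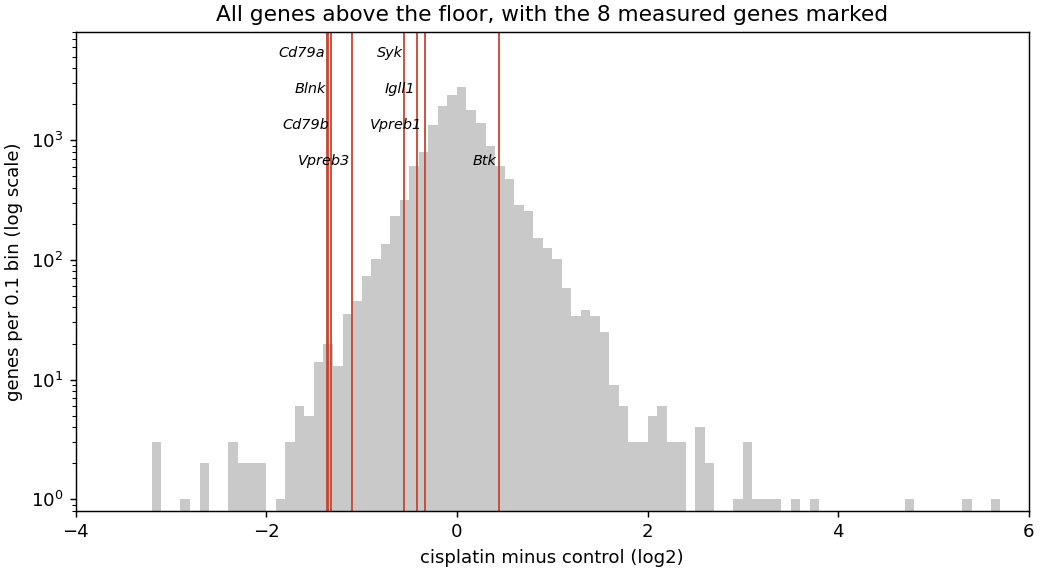
Number of genes above the floor per 0.1 bin (y axis, log scale) by their cisplatin minus control difference in log2 (x axis), with a line for each of the 8 measured genes. Cd79a, Blnk, Cd79b and Vpreb3 lie in the lower tail at -1.36 to -1.10, while Btk lies at 0.44 on the other side.

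Other genes of the B lineage and of the same pathway were read from lists not picked for how they moved here, though they were written with earlier results of these data known. Early B cell regulators, recombinases and receptors, 14 of 16 listed, had a median cisplatin minus control difference of -0.91, with 9 genes at least 1.5-fold lower and none higher, where 4.28% of all genes were lower and 7.09% higher by that size. Ebf1, the factor that starts the B cell program and activates Cd79a, was at 9.39 in astragalus, 9.19 in electro-acupuncture, 8.99 in cisplatin and 10.40 in control. Il7r, the interleukin 7 receptor, was at 9.47, 9.05 and 8.76 in the same 3 treated arrays and 10.81 in control. Control was the highest array for both.

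Not all early genes followed. Dntt, the enzyme that adds bases at heavy chain joints, was at 6.75 in astragalus, 7.43 in electro-acupuncture, 6.34 in cisplatin and 6.51 in control, so that control was not the highest. Rag2, a recombinase subunit, was at 5.53, 5.93 and 5.13 in the astragalus, electro-acupuncture and cisplatin arrays and 5.66 in control. Both were highest in electro-acupuncture, which was the highest array for none of the 8 receptor and signalling genes. They had the largest electro-acupuncture minus cisplatin differences of their list, at 1.09 and 0.80.

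Mature B cell markers, 12 of 14 listed, had medians of -0.47 in astragalus, -0.59 in electro-acupuncture and -0.35 in cisplatin, each minus control, with 5, 6 and 5 genes at least 1.5-fold lower and none higher. By that size 6.67%, 6.85% and 4.28% of all genes were lower and 14.4%, 11.2% and 7.09% higher in these comparisons. Ms4a1, which encodes CD20, was at 7.06 in astragalus, 7.15 in electro-acupuncture, 7.58 in cisplatin and 8.32 in control. Unlike Cd79a and Cd79b, it was lower in astragalus and electro-acupuncture than in cisplatin. Spib, a transcription factor of B cells and plasmacytoid dendritic cells, was at 7.86, 7.42 and 7.48 in the 3 treated arrays in that order and 9.03 in control. Plasma cell genes, 6 of 6 listed with 1 under the floor, averaged 6.42, 6.27, 6.22 and, in control, 6.08. These means lean on Jchain, at 8.51, 7.26, 7.27 and, in control, 6.58. In cisplatin minus control the list's median was 0.2. There 1 gene was at least 1.5-fold higher, Jchain at 0.69, and 1 was lower, Mzb1 at -0.69. In astragalus minus control Jchain was at 1.93, while the list's median was 0.1.

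Co-receptors and inhibitory regulators of the B cell receptor, 17 of 18 listed, had a median of -0.19 in cisplatin minus control, with 2 genes at least 1.5-fold lower and 2 higher, against 4.28% and 7.09% of all genes. The lower ones were Cd72, an inhibitory co-receptor, at 8.11 in cisplatin and 9.52 in control, and Siglecg, a sialic acid receptor that dampens calcium signals, at 6.90 in cisplatin and 7.89 in control. Higher were Cd81, a tetraspanin membrane protein found on many cell types, at 10.35 in cisplatin and 9.59 in control, and Cbl, a ubiquitin ligase. Cbl had 2 clusters that disagreed, with a difference of 0.80 for the brighter and -0.13 for the other. In electro-acupuncture minus control the median was -0.28, with 4 genes lower and 2 higher by that size (1 higher under each other setting). Of all genes, 6.85% were lower and 11.2% higher there. In astragalus minus control the median was -0.08, with 3 lower and 2 higher, against 6.67% and 14.4% of all genes. The astragalus median was 0.04 with each array centred on its median and -0.30 with the loess trend removed.

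Adaptors, kinases and enzymes downstream of the receptor, 32 of 39 listed, had a median of -0.06 in cisplatin minus control, with 4 genes at least 1.5-fold lower and 1 higher, against 4.28% and 7.09% of all genes. Blk, a Src family kinase of B cells, was at 5.85 in cisplatin and 6.86 in control, and Pik3ap1, the adaptor BCAP, at 7.13 in cisplatin and 7.86 in control. Itpr2, a calcium release channel, was at 8.42 in astragalus, 7.92 in electro-acupuncture, 8.66 in cisplatin and 9.50 in control. Like Syk, it was lowest in electro-acupuncture. Dapp1, an adaptor that binds phosphoinositides, was higher than control on the other arrays, at 8.73, 8.62 and 8.71 in astragalus, electro-acupuncture and cisplatin and 7.96 in control.

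Plcg2 is named outside the rule for gene names, after its values were seen, because it is the next enzyme in the chain. This phospholipase C, which BLNK and BTK bring together, was at 7.90 in astragalus, 7.66 in electro-acupuncture, 7.83 in cisplatin and 7.89 in control. Its highest and lowest arrays lay 0.24 apart, against 1.35 for Blnk. In astragalus minus electro-acupuncture, 29 of the 32 downstream genes and 15 of the 17 co-receptor genes were above 0. The medians were 0.18 and 0.22, against 0.06 over all genes, so the greater part of all genes was above 0 too. In each list 1 gene reached 1.5-fold, Rac2 (a small GTPase of blood cells) at 0.61 and Pirb (an inhibitory receptor of myeloid and B cells) at 0.59, where 5.68% of all genes were. After quantile normalization or removal of the loess trend no gene of either list did, and with median centring 5 downstream and 2 co-receptor genes did. With the loess trend removed the medians were 0.10 and 0.06, with 24 and 10 genes above 0.

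**Figure D5:**
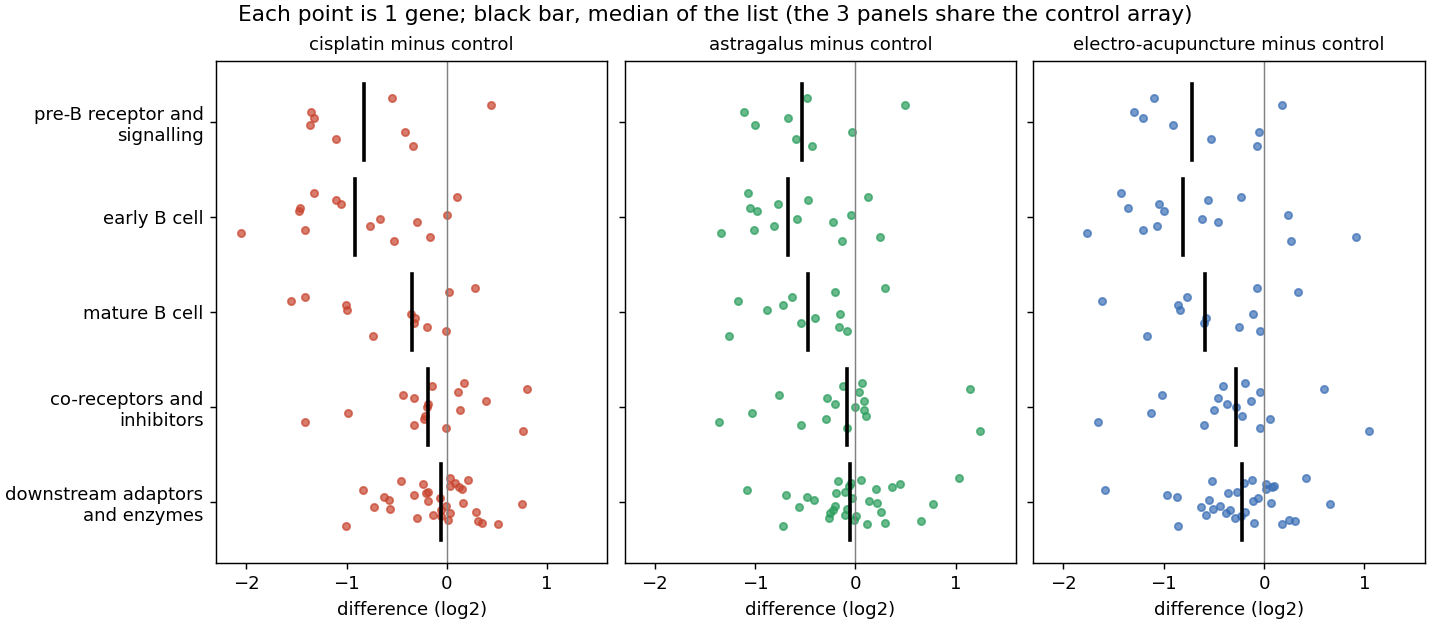
Difference from control on the log2 scale (x axis) of each gene in 5 lists (rows), for cisplatin, astragalus and electro-acupuncture in turn. Each point is 1 gene and the black bar is the list's median, which in cisplatin minus control runs from -0.91 for early B cell genes to -0.06 for downstream genes.

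The genes whose course over the 4 arrays was most like that of the listed genes were found among 11229 protein-coding genes above the floor. Likeness was the root mean square difference between levels centred on each gene's mean. For the averaged course of Vpreb1, Vpreb3, Igll1, Cd79a and Cd79b, the nearest were Mterf2 at 0.038, Strbp at 0.051, Serinc5 at 0.066, Tifa at 0.068 and Zfp759 at 0.070. Strbp, which encodes an RNA binding protein, was at 9.27 in astragalus, 9.21 in electro-acupuncture, 8.77 in cisplatin and 9.72 in control. For the averaged course of Blnk, Btk and Syk they were Irf8 at 0.010, Fcho2 at 0.014, Rbm5 at 0.016, Cep95 at 0.028 and Mlxip at 0.030. Irf8, a transcription factor of myeloid and B cells, was at 7.03 in astragalus, 6.65 in electro-acupuncture, 6.90 in cisplatin and 7.37 in control. That second average joins genes that ran apart, since Btk was lowest in control where Blnk and Syk were highest.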

How the data were processed

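Marrow RNA of 4 groups was measured on 1 array each. The deposited values are log2 levels, 1 per transcript cluster and array, which the authors made with Affymetrix Expression Console per the submitters' processing notes. The sources used here give no version, summary method or scaling between arrays. That the scale is log2 was taken from the range, 2.70 to 19.93.

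Of 65956 clusters, 32750 were in the platform's gene table, 31258 of them with 1 symbol and 1492 with several, from which no gene was named. Symbols were updated for 1152 clusters through the RefSeq table of GRCm38.p6, giving 30702 genes, each read from its cluster with the highest mean. Genes with a mean of at least 5.235, the median over clusters, formed the background of 17208 genes. Differences between arrays were counted by size, at 1.5-fold and 2-fold, in 6 comparisons. The steps were tested on simulated data.

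The members, lists and sizes were chosen with earlier results of these data known. For each list, up to 4 genes with the largest difference in the comparison described are named, with all 9 members and the 5 genes nearest to each of the averaged courses. Named outside this rule were Plcg2, the markers of the marrow label, and the neutrophil, monocyte and macrophage genes that went the other way. The alternatives were quantile normalization, centring on array medians, removal of a loess trend (span 0.3) and the mean of a gene's clusters, with 2 other filters for the background. Python 3.11.15, pandas 2.3.3, numpy 2.4.6 and statsmodels 0.14.6 were used.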

Additional observations from a re-analysis of the deposited data

How the results depend on the processing

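The cisplatin minus control results hardly moved: under quantile normalization, median centring and loess the median over the 8 genes stayed within 0.1 of -0.82 and 4 genes were at least 1.5-fold lower. Results that involve the astragalus array moved. In astragalus minus control the median was -0.42 with median centring and -0.72 with loess, against -0.53 as deposited. In astragalus minus cisplatin, 0.30 as deposited, it was 0.11 after quantile normalization, 0.41 with median centring and 0.11 with loess, and the count of genes past 1.5-fold was 0, 2 and 0, against 1. In electro-acupuncture minus cisplatin 1 gene passed 1.5-fold with median centring, against 0. In astragalus minus electro-acupuncture the median was 0.26 with median centring, against 0.10, and the count was 0 after quantile normalization, 2 with median centring and 0 with loess, against 1. Median centring set the median of all genes at 0.17 in astragalus minus control, 0.17 in astragalus minus cisplatin and 0.22 in astragalus minus electro-acupuncture. The cause of these moves was not tested. Taking the mean of a gene's clusters could change nothing for the 8 genes, since each has 1 cluster. Among 48 single-gene differences per setting, 18 moved by over 0.1 after quantile normalization, 24 with median centring and 20 with loess, and no difference of at least 1.5-fold changed sign. Smaller ones that did include Vpreb1 in astragalus minus cisplatin and Vpreb3 and Cd79a in astragalus minus electro-acupuncture, all with median centring. The share of all genes at least 1.5-fold different in cisplatin minus control was 11.4%, with 8.19% without the filter and 16.2% with the floor at the 75th percentile. No paired analysis was possible because each group has 1 array. With 1 array per group, array and treatment cannot be told apart, and levels of genes near the floor, such as Igll1, carry little information.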
